A study of Mus musculus with 6 samples.

Results

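The factors described here are 10 genes whose products hold, feed or attract blood-forming cells in the bone marrow niche: Kitl, Cxcl12, Vcam1, Il7, Csf1, Il34, Flt3l, Thpo, Ptn and Igf1. They were followed through every probe set, the group of short probes that reads one transcript on an Affymetrix array, whose platform annotation names only that gene. This gave 24 of 45037 probe sets, which measured 8 of the 10 genes, out of 18193 genes in all. Flt3l, which encodes the ligand of the Flt3 receptor, is named only on a probe set that it shares with another gene, and no probe set was found here under the name of Thpo, the gene of thrombopoietin, so neither was analysed here. The main value of a gene came from its probe set of highest mean, taken across all 6 arrays.

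Gene expression was measured on 6 Affymetrix Mouse 430 2.0 arrays, each with RNA of cells sorted from the pooled fore and hind limbs of a litter of mice at postnatal day 3. In 3 samples, called Tie2-positive here, the cells were titled as negative for CD45 (the pan-leukocyte antigen) and Ter119 (an antigen of red cells and their precursors), low for integrin alpha V (Itgav) and positive for Tie2, the angiopoietin receptor encoded by Tek. In the other 3, called Tie2-negative here, they were titled as negative for CD45, Ter119, integrin alpha V and Tie2. The labels give the genotype of all 6 as wild type, while the protocol names GFP-labelled mice. Nothing states that replicates stem from different litters, so each p-value reflects only how these samples scatter, and that scatter may be technical.

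Bone marrow stem and progenitor cells live among endothelial and mesenchymal cells that display or secrete the factors they need. Kit ligand and the chemokine CXCL12 are the best known of these: both come from vessel-associated stromal cells and, to a lesser extent, from endothelium, and they keep stem cells alive and in place. VCAM1 holds cells that carry the integrin alpha 4 beta 1, interleukin 7 drives early B-cell growth, CSF1 and IL34 share a receptor on macrophages and their precursors, pleiotrophin is a heparin-binding growth factor, and IGF1 acts on many cell types through its tyrosine kinase receptor.

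The main probe sets of Kitl, Cxcl12, Vcam1 and Igf1 were higher in Tie2-positive cells on every array, that of Il34 was lower, and those of Il7, Csf1 and Ptn overlapped between the populations. A further probe set of Ptn rose. At the gene level limma called 4 of the 8 measured factors higher (over all 18193 genes 4.86% were called higher) and 1 lower (2.53% of all genes), with the other 3 not past the adjusted threshold of 0.05. By probe set it called 9 of 24 (4.99% of all probe sets), 8 higher (3.39%) and 1 lower (1.6%). The gene-level values rest on probe sets chosen by their mean over these same arrays. For Kitl, Cxcl12 and Vcam1 that mean was the highest of the gene through the Tie2-positive arrays alone, and for Ptn and Csf1 through the Tie2-negative ones alone. Their gene-level folds, ranks and calls depend on that choice, which the fit by probe set does not make. The 2 populations did not overlap in 5 of the 8 genes (39.1% of all genes), nor in 13 of the 24 probe sets (34.6% of all), of which 12 were higher in Tie2-positive cells (13.1%). The median log2 change of the 8 genes was 1.54, against -0.11 over all genes. No gene at all was called, and so 0 of the 8 factors, with the replicate number as a block or without Tie2-negative replicate 1 or 2. In all 3 of these limma fits 5 of the 8 had unadjusted p-values under 0.05. Over all 18193 genes 5080 had such p-values with the block, 4012 without Tie2-negative replicate 1 and 3980 without replicate 2. Changes are log2 differences of quantile-normalized values, Tie2-positive minus Tie2-negative, with n = 3 arrays per population.

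**Figure D1:**
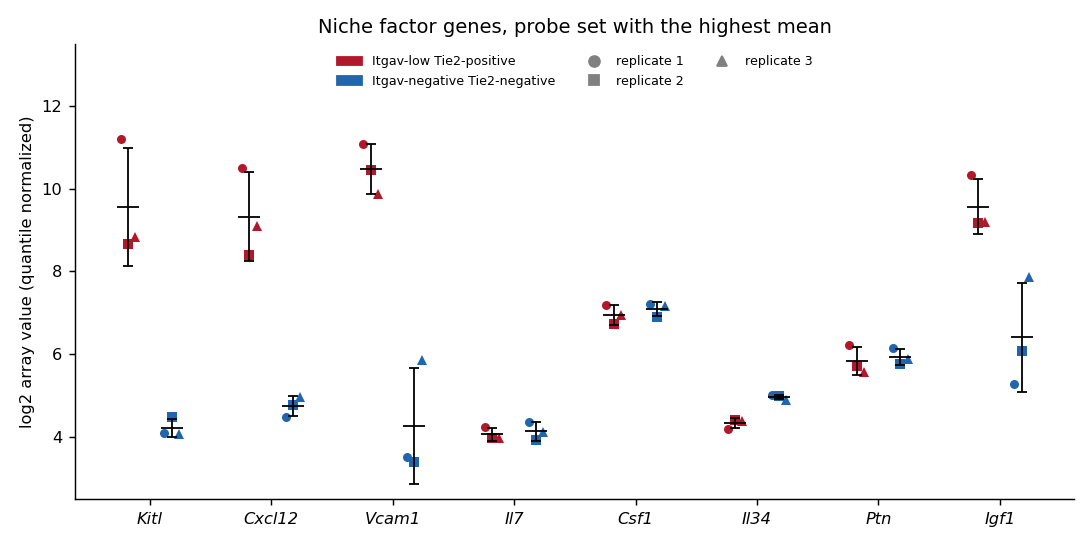
Log2 array value (quantile normalized) of the main probe set of each of the 8 measured niche factors, in the 3 Tie2-positive (red, left) and 3 Tie2-negative (blue, right) samples, with marker shape for the replicate and bars for mean ± SD. Kitl, Cxcl12, Vcam1 and Igf1 stand apart upward in the Tie2-positive samples, Il34 stands slightly apart downward, and the other 3 overlap.

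Proximal promoters of 3 risers and of Csf1, whose main probe set did not pass, are shown so that the sequence before genes that rose can be read beside one whose main probe set overlapped. The sequences are RefSeq's, build GRCm38.p6, each 300 bases that run with the gene from 250 bases before its start to 50 after, and the capitals mark the GC box GGGCGG on either strand. The table of sequences held 7 of the 10 genes.
Kitl (chr10:100015571-100015870, plus strand): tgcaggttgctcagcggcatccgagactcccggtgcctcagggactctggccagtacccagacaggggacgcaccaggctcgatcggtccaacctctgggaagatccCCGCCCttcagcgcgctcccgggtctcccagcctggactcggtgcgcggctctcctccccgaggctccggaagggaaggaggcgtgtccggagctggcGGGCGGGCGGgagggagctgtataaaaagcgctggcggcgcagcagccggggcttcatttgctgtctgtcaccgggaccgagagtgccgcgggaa
Cxcl12 (chr6:117168285-117168584, plus strand): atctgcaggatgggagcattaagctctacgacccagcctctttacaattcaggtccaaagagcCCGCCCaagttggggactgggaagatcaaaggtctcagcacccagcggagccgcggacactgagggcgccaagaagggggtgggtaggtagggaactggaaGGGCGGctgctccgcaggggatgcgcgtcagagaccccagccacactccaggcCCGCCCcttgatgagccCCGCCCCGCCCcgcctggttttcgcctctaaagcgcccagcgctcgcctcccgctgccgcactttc
Igf1 (chr10:87860861-87861160, plus strand): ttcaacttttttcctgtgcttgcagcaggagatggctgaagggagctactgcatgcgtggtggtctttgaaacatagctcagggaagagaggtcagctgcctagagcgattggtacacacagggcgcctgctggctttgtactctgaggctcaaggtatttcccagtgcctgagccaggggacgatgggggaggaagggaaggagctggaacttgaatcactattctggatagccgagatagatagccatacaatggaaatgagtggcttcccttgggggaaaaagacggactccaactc
Csf1 (chr3:107760420-107760719, minus strand): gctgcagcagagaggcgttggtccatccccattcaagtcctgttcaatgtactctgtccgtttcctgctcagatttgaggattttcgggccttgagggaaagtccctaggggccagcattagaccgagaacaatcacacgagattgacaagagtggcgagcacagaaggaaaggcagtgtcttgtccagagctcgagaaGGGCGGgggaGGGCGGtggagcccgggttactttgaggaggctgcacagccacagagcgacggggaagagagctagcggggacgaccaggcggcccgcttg
The GC box occurred 3 times before Kitl, 5 times before Cxcl12, 2 times before Csf1 and 0 times before Igf1, and 35.7% of the 32851 promoters of this length hold at least 1. The Kitl and Cxcl12 windows had GC contents of 68.7% and 64.7%, those of Igf1 and Csf1 52.3% and 58.7%, and the median over all promoters was 52.7%. Of 7 other motifs searched on both strands, the TATA box TATAAA (13.6% of promoters) was found at position -25 of Kitl and in none of the other 3, and the ETS core CCGGAA (14.9%) once before Kitl. The SOX core ACAAT (31.0%) occurred once each for Cxcl12, Igf1 and Csf1. No match was found in these 4 windows for GGAAGT (23.8%), ACGTG (19.6%), the E-box CACGTG (7.15%, which holds ACGTG) or the GATA motif AGATAA (11.2%). These matches describe the letters only.

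Kitl encodes the membrane-bound and shed ligand of the Kit receptor. Its main probe set, 1415855_at, gave 11.21, 8.66 and 8.83 in Tie2-positive replicates 1, 2 and 3, and 4.11, 4.48 and 4.07 in the Tie2-negative samples. The lowest Tie2-positive array lay far above every Tie2-negative one, and replicate 1 lay well above both others. The rise was 5.35 ± 0.66 (SE; 40.8-fold; limma adjusted p = 0.0122), the 30th largest change in either direction among 18193 genes. The Tie2-negative mean lay at the 17.4th percentile of all probe sets in that population, a level not shown to be above background, so the fold and the rank hold for the measured values only. Above the Tie2-negative mean, replicate 1 stood 6.99 higher, replicate 2 4.44 and replicate 3 4.61. At the gene level the adjusted p was 0.0676 and 0.0668 without Tie2-negative replicate 1 and 2, and 0.0528 with the replicate block. By probe set, 1415855_at passed with the block (limma adjusted p = 0.0422).

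The other 3 Kitl probe sets showed smaller changes, and none of them passed. Of these, 1448117_at and 1415854_at are annotated to the same sequence record as the main one and were higher on all 3 Tie2-positive arrays without passing. Probe set 1448117_at gave 7.34, 5.92 and 6.02 against 4.97, 5.30 and 5.53 (1.16 ± 0.39, SE; adjusted p = 0.130), and 1415854_at gave 5.61, 4.47 and 4.37 against 3.83, 4.01 and 3.97 (0.88 ± 0.31, SE; adjusted p = 0.145). Probe set 1426152_a_at, annotated to a separate record, gave 6.03, 5.86 and 5.76 in Tie2-positive and 5.93, 5.64 and 6.08 in Tie2-negative samples, with equal means (change 0.00 ± 0.18, SE). The mean over all 4 probe sets rose by 1.85 (adjusted p = 0.0354).

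Cxcl12, the chemokine that retains stem cells and B-cell precursors in marrow through the receptor CXCR4, also rose. Its main probe set, 1417574_at, gave 10.51, 8.39 and 9.09 in Tie2-positive replicates 1, 2 and 3, and 4.48, 4.78 and 4.96 in the Tie2-negative samples. The populations were separated by more than 3 units, and replicate 1 was again the highest. The rise was 4.59 ± 0.52 (SE; 24.1-fold; limma adjusted p = 0.0105). A second probe set, 1448823_at, rose by 2.28 ± 0.37 (SE; adjusted p = 0.0218 by probe set), with 7.87, 6.52 and 6.88 in Tie2-positive against 4.65, 5.22 and 4.55 in Tie2-negative samples. The third, 1439084_at, with 6.06, 5.55 and 5.59 against 5.42, 5.56 and 5.80, overlapped and did not pass (0.14 ± 0.20, SE). The mean over the 3 probe sets rose by 2.34 (adjusted p = 0.0203). At the gene level the adjusted p was 0.0654 and 0.0638 without Tie2-negative replicate 1 and 2 and 0.0528 with the replicate block. By probe set, 1417574_at passed with the block (limma adjusted p = 0.0422). For 1448823_at the adjusted p by probe set was 0.107, 0.0763 and 0.0782 without Tie2-negative replicates 1, 2 and 3, and 0.0611 with the replicate block.

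Vcam1, the cell-surface partner of integrin alpha 4 beta 1, showed the largest change of the 8 genes and the 10th largest in size among 18193. Probe set 1448162_at gave 11.08, 10.46 and 9.88 in Tie2-positive replicates 1, 2 and 3, and 3.52, 3.40 and 5.87 in Tie2-negative replicates 1, 2 and 3. The Tie2-positive values lay close together, whereas Tie2-negative replicate 3 stood more than 2 units above the other Tie2-negative arrays. The rise was 6.21 ± 0.69 (SE; 74.0-fold; limma adjusted p = 0.0104), and it was 7.01 without that replicate. Its Tie2-negative mean lay at the 18.4th percentile of all probe sets in that population, so the limit given for the fold and rank of Kitl holds here too, as it does for Cxcl12 (29.1st percentile) and for probe set 1448254_at of Ptn (9.44th). Without Tie2-negative replicate 1 or 2 the adjusted p at the gene level was 0.0633 and 0.0638, and with the replicate block 0.0528. By probe set, 1448162_at passed with the block (limma adjusted p = 0.0443).

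Of the other Vcam1 probe sets one rose and one overlapped. Probe set 1415989_at gave 8.25, 8.09 and 7.59 against 6.31, 6.21 and 6.90, a rise of 1.50 ± 0.28 (SE; limma adjusted p = 0.0326 by probe set). Its adjusted p ran from 0.0543 to 0.132 without Tie2-positive replicate 2 or any 1 of the Tie2-negative arrays, and was 0.0870 with the replicate block. Probe set 1451314_a_at gave 8.13, 7.22 and 6.71 against 6.85, 6.85 and 6.80 and did not pass (0.52 ± 0.36, SE). On average over the 3 probe sets the rise was 2.74 (adjusted p = 0.0196).

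Igf1, which encodes insulin-like growth factor 1, was higher on every Tie2-positive array in all 4 of its probe sets. The main one, 1437401_at, gave 10.33, 9.17 and 9.21 in Tie2-positive replicates 1, 2 and 3, and 5.27, 6.08 and 7.87 in Tie2-negative replicates 1, 2 and 3. As for Vcam1, Tie2-negative replicate 3 was the highest of its population, and the gap between the populations was smaller than the spread of the Tie2-negative arrays. The rise was 3.16 ± 0.68 (SE; 8.96-fold; limma adjusted p = 0.0417). It lay near the threshold: the adjusted p was 0.0906 and 0.0618 when Tie2-positive replicate 2 or 3 was left out, and it passed neither without Tie2-negative replicate 1 (0.131) or 2 (0.141), nor with the replicate block (0.0982) or over the mean of its probe sets (2.36, 0.0511).

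The second Igf1 probe set gave nearly the same picture. Probe set 1434413_at had 10.78, 9.20 and 8.56 against 5.62, 5.35 and 7.47 (3.36 ± 0.72, SE; limma adjusted p = 0.0466 by probe set), and the adjusted p was 0.107 when Tie2-positive replicate 2 was left out. It did not pass either without Tie2-negative replicate 1 (0.160), 2 (0.156) or 3 (0.0510), with the replicate block (0.0978) or with eBayes without trend (0.0548). The remaining 2, 1419519_at (1.23 ± 0.38, SE) and 1452014_a_at (1.68 ± 0.54, SE), did not overlap between the populations but did not pass (adjusted p = 0.110 and 0.122).

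For Ptn, the gene of pleiotrophin, the probe sets disagreed. The one with the highest mean, 1443173_at, gave 6.21, 5.72 and 5.58 in Tie2-positive replicates 1, 2 and 3, and 6.15, 5.76 and 5.90 in Tie2-negative samples, and did not pass (-0.10 ± 0.21, SE; limma adjusted p = 0.785). Probe set 1448254_at gave 8.63, 7.67 and 6.01 in Tie2-positive replicates 1, 2 and 3, and 3.69, 3.65 and 4.06 in Tie2-negative samples. It rose by 3.63 ± 0.59 (SE; 12.4-fold; limma adjusted p = 0.0225 by probe set). All 3 Tie2-positive arrays lay above the Tie2-negative ones, with replicate 1 the highest and replicate 3 the lowest.

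Probe set 1416211_a_at of Ptn is annotated to the same sequence record as 1448254_at. It gave 7.30, 6.44 and 5.39 against 5.37, 5.15 and 5.44, so that Tie2-positive replicate 3 overlapped the Tie2-negative arrays, and it did not pass (1.06 ± 0.44, SE; adjusted p = 0.191). It did pass without that replicate (1.55, adjusted p = 0.0382). Because the main value rests on the probe set with the highest mean, Ptn counts as not past the threshold at the gene level. The mean over its 3 probe sets was higher by 1.53 without passing (adjusted p = 0.0705). Leaving out Tie2-positive replicate 2 gave 1448254_at an adjusted p of 0.0691, and it did not pass either without Tie2-negative replicate 1 (0.109), 2 (0.104) or 3 (0.0700), or with the replicate block (0.0555).

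**Figure D2:**
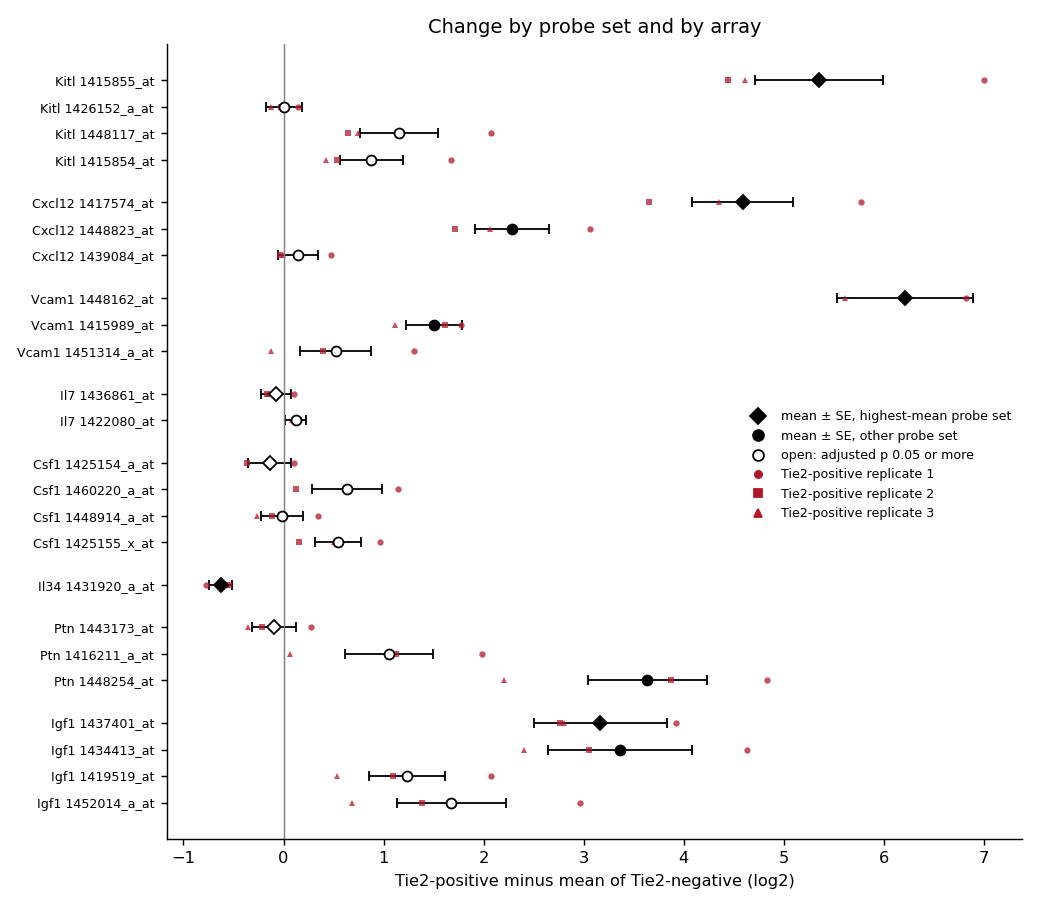
Change of each of the 24 probe sets of the niche factors, as Tie2-positive minus the Tie2-negative mean in log2 units: black symbols give the mean ± SE (diamonds for the main probe set, filled where limma's adjusted p over all probe sets was under 0.05), and red symbols the single Tie2-positive arrays. Probe sets of one gene differ widely, from 0.00 to 5.35 for Kitl and from -0.10 to 3.63 for Ptn.

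Of the 2 ligands of the Csf1 receptor, Il34 fell and Csf1 did not pass. Csf1, the main macrophage growth factor, gave 7.20, 6.72 and 6.94 in Tie2-positive and 7.21, 6.90 and 7.17 in Tie2-negative samples on 1425154_a_at, and did not pass (-0.14 ± 0.21, SE; limma adjusted p = 0.674). Its other probe sets, 1460220_a_at (0.63 ± 0.35, SE), 1448914_a_at (-0.01 ± 0.21, SE) and 1425155_x_at (0.54 ± 0.23, SE), did not pass either (adjusted p = 0.295, 0.976 and 0.199). Il34, whose product was found as another ligand of that receptor, is read by the single probe set 1431920_a_at, with 4.19, 4.42 and 4.39 in Tie2-positive and 5.01, 4.98 and 4.90 in Tie2-negative samples. Its populations did not overlap, and it fell by 0.63 on the log2 scale (SE 0.11; 1.55-fold lower; limma adjusted p = 0.0262). Its mean level was at the 15.9th percentile of all genes, and, without detection calls in the table, its standing against background was not analysed here. The adjusted p was 0.0663 and 0.0510 when Tie2-positive replicate 2 or 3 was left out, and Il34 did not pass without Tie2-negative replicate 1 (0.0977), 2 (0.0977) or 3 (0.0680), or with the replicate block (0.0762). The difference between the changes of Csf1 and Il34 was not tested.

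Il7, the growth factor of early B cells, lay low on both probe sets and overlapped between the populations. Probe set 1436861_at gave 4.24, 3.97 and 3.98 in Tie2-positive and 4.37, 3.91 and 4.13 in Tie2-negative samples (-0.07 ± 0.14, SE; limma adjusted p = 0.750). Probe set 1422080_at gave 3.85, 3.87 and 3.80 against 3.65, 3.61 and 3.90 (0.12 ± 0.10, SE; adjusted p = 0.484). The mean level of the first was at the 8.07th percentile of all genes, so a change in Il7 may not be detectable by these probe sets.

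How far probe sets of a gene differed in their response was measured within arrays, as the main probe set minus each other one of the gene. Over 16 such pairs in 7 genes, the within-array difference did not overlap between the populations in 12, against 31.4% of 16752 such pairs over all genes. The main probe set was picked by its mean over all 6 arrays. For Kitl, Cxcl12 and Vcam1 it had the highest mean through the Tie2-positive arrays alone. For Ptn and Csf1 it had the highest mean through the Tie2-negative arrays alone. These differences therefore use values of that choice and are a description, with no test. The pairs that overlapped were the single Il7 pair, 1 of 3 Csf1 pairs, and 2 of 3 Igf1 pairs, among them 1437401_at and 1434413_at of Igf1, whose changes differed by -0.20. The largest gap was that between the Vcam1 probe sets 1448162_at and 1451314_a_at, at 5.69, followed by that of 5.35 between the Kitl probe sets 1415855_at and 1426152_a_at. Where each probe set lies along its transcript was not analysed here.

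**Figure D3:**
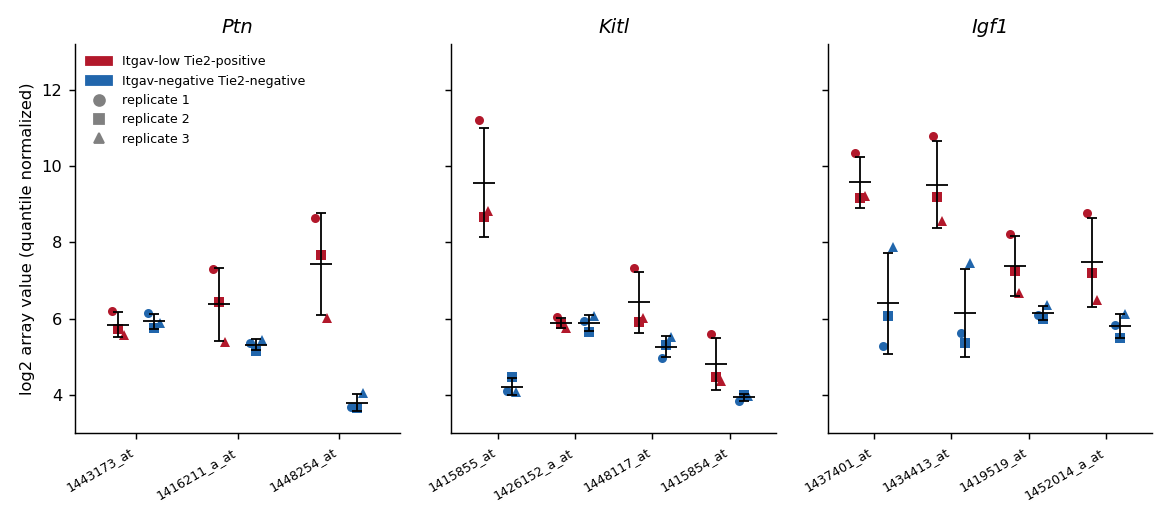
Log2 array value (quantile normalized) of every probe set of Ptn, Kitl and Igf1, ordered by mean level, in Tie2-positive (red, left) and Tie2-negative (blue, right) samples, with marker shape for the replicate and bars for mean ± SD. The main Ptn probe set, on the left, overlaps. The one on the right differs by 3.63 between the population means, with a gap of 1.95 between the nearest arrays. For Kitl the main one separates the populations most.

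The size of each rise depended on the array. Tie2-positive replicate 1 had the highest value of its population in 22 of the 24 probe sets and in all 8 that rose, and over all genes in 7665 of 18193. The same array was the highest for 10 of the 10 endothelial markers described below. With Tie2-positive replicates 2 and 3 left out together, the changes were 6.99 for Kitl, 5.77 for Cxcl12, 6.82 for Vcam1 and 3.93 for Igf1 at the gene level, and 4.83 for Ptn on 1448254_at. In that fit limma called 16 of the 24 probe sets, 15 of them higher (14.4% of all probe sets were called either way), which takes the spread of the single remaining Tie2-positive array to equal that among Tie2-negative arrays. Without Tie2-positive replicate 1 the rises were 4.53 for Kitl, 4.00 for Cxcl12, 5.91 for Vcam1 and 2.78 for Igf1, and limma called 8 of the 24, all higher (7.95% of all probe sets were called either way). In the Tie2-negative population, replicate 3 was the highest in 6 of the 8 probe sets that rose and in 13 of the 24. Over all genes it was the highest in 6523 of 18193.

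Genes of the sorting antigens and of other cell types differed between the arrays. Tek, the gene of the sorted antigen, gave 12.06, 10.86 and 9.80 on the Tie2-positive arrays, against 4.79 to 4.90 on the Tie2-negative ones, in the direction of the gate. Ptprc, the gene of CD45, by which cells were to be removed, gave 4.87, 9.95 and 11.23 on the Tie2-positive and 9.52, 10.41 and 9.42 on the Tie2-negative arrays. It was thus high on 5 of the 6 arrays, all titled CD45-negative, a gate that should remove the neutrophils and most B-lineage cells whose markers follow. Itgav gave 8.78, 8.60 and 9.37 against 7.06, 7.18 and 7.24. Of 10 endothelial markers 8 rose and 0 fell, where 4.86% and 2.53% of all genes did. The same shares apply to the counts of all marker lists that follow. The median of the endothelial markers was 11.78, 10.33 and 8.98 in Tie2-positive replicates 1, 2 and 3, against 5.52 to 5.81 in Tie2-negative samples. That of 7 neutrophil markers, of which none passed, was 6.08, 12.48 and 13.69 against 6.35 to 9.07, and that of 6 megakaryocyte markers, of which Pf4 rose, was 6.78, 10.11 and 8.65 against 6.22 to 6.41. Of 7 erythroid markers 5 fell and 0 rose, and of 7 B-lineage markers 5 fell and 0 rose. The median of the erythroid markers was between 5.31 and 7.09 in Tie2-positive and between 10.81 and 12.35 in Tie2-negative samples. That of the B-lineage markers was between 5.40 and 5.65 in Tie2-positive and between 8.48 and 10.93 in Tie2-negative samples. In sorted bulk samples fewer cells of a type and less RNA per cell cannot be told apart, and the part of other cell types in the changes of the niche factors was not tested.

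Mesenchymal stroma is the other well-known source of Kitl and Cxcl12. Of 10 markers of it 1 rose and 0 fell (4.86% and 2.53% of all genes). The populations did not overlap in 3 of them, all higher in Tie2-positive samples (15.2% of all genes). The riser was Ebf3, a transcription factor of marrow reticular cells (2.12 ± 0.48, SE; limma adjusted p = 0.0480). Col1a1, a collagen of bone and connective tissue, gave 7.80, 6.52 and 6.42 in Tie2-positive and 6.66, 7.53 and 7.09 in Tie2-negative samples. The list's median was 6.08, 5.61 and 5.58 in Tie2-positive replicates 1, 2 and 3, against 5.30 to 5.40 in Tie2-negative samples. Lepr, the leptin receptor of marrow stroma, gave 7.22, 6.06 and 5.75 against 5.87, 5.83 and 5.67 and did not pass (adjusted p = 0.352) (named after its values were seen). Foxc1 (1.36, limma adjusted p = 0.172) and Pdgfrb (0.39, 0.134), also named after their values were seen, were higher without overlap but did not pass. Among 8 pericyte and smooth muscle markers Mylk, myosin light chain kinase, rose by 3.21 ± 0.48 (SE) and Cnn1 fell. Among 8 of bone and cartilage Alpl fell. Of 7 skeletal muscle markers none passed, 5 with a positive change and 2 with a negative one. Some that did not pass were uneven between arrays (named after their values were seen). Myf5 gave 4.01, 7.24 and 8.83 against 3.08, 3.27 and 6.47, and Pax7 4.86, 6.69 and 8.17 against 4.45, 4.65 and 6.02. The bone marker Ibsp gave 7.27, 3.39 and 3.27 against 3.23, 3.86 and 3.62. Mrc1, a scavenger receptor of macrophages that sinusoidal endothelium also makes, was the only riser of 8 macrophage markers (4.89 ± 0.79, SE), and Adgre1 was 7.05, 6.31 and 8.19 in Tie2-positive against 6.67, 7.10 and 6.54 in Tie2-negative samples.

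**Figure D4:**
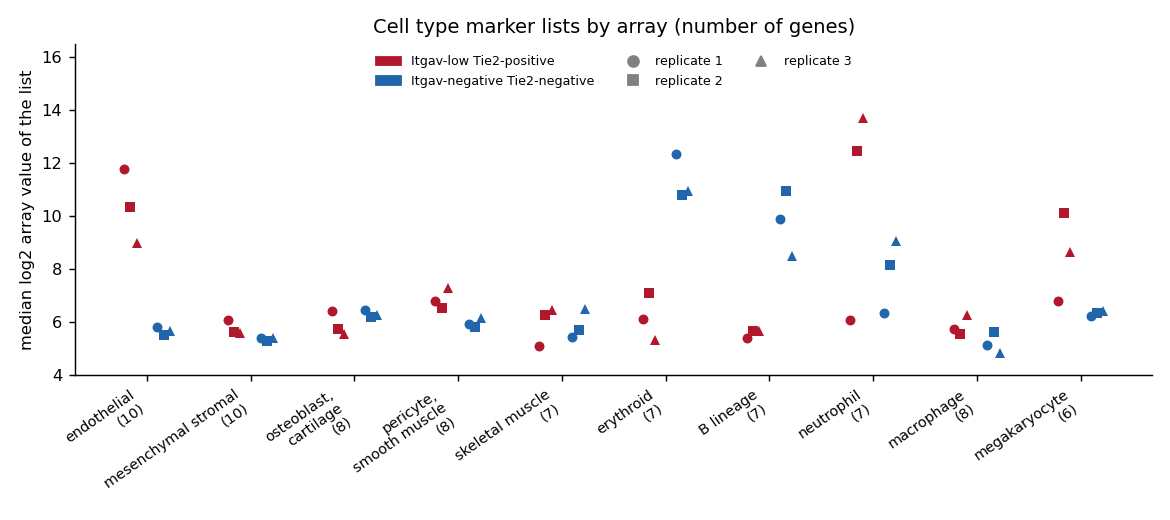
Median log2 array value of each cell type marker list in every array, Tie2-positive (red, left) and Tie2-negative (blue, right), with marker shape for the replicate and the number of measured genes in brackets. Endothelial markers separate the populations upward, erythroid and B-lineage markers downward, and neutrophil and megakaryocyte markers are highest in Tie2-positive replicates 2 and 3.

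Of 16 measured receptors and binding partners of the 10 factors, 1 rose, 1 fell and 14 did not pass (7.39% of all genes were called either way). The median change was -0.14. The populations did not overlap in 3 that were higher and 4 that were lower in Tie2-positive samples (15.2% and 23.9% of all genes). Ackr3, an atypical receptor that takes up CXCL12, gave 10.02, 7.60 and 8.15 in Tie2-positive and 4.28, 4.13 and 5.33 in Tie2-negative samples, a rise of 4.01 ± 0.65 (SE; limma adjusted p = 0.0205). Il7r, the receptor chain of interleukin 7, gave 5.05, 4.96 and 5.42 against 9.32, 9.72 and 7.50, a change of -3.70 ± 0.56 (SE; adjusted p = 0.0176), in the same direction as the B-lineage markers. Named after their values were seen, Kit (0.02, adjusted p = 0.980), the CXCL12 receptor gene Cxcr4 (-0.31, 0.731), Csf1r (0.69, 0.519), Flt3 (-0.69, 0.289) and Igf1r (0.95, 0.0642) did not pass. Nor did Itga4, the gene of the integrin alpha 4 chain (-2.305, limma adjusted p = 0.213), also named after its values were seen. It gave 5.63, 9.72 and 9.77 in Tie2-positive and 11.26, 10.52 and 10.25 in Tie2-negative samples, without overlap.

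Of 11 enzymes that shed or cut these factors, 1 rose and 0 fell (4.86% and 2.53% of all genes). The riser Mmp2, a gelatinase that can cleave CXCL12, gave 10.32, 8.92 and 9.17 in Tie2-positive and 5.75, 5.67 and 6.73 in Tie2-negative samples (3.42 ± 0.46, SE; limma adjusted p = 0.0132). The other 10 did not pass. Among them the neutrophil proteases Ctsg (6.09, 11.21 and 13.47 against 5.69, 6.85 and 7.66) and Elane (6.08, 8.89 and 10.97 against 6.35, 6.41 and 6.44), named after their values were seen, were high in Tie2-positive replicates 2 and 3, where the neutrophil markers were high. Elane is itself 1 of the 7 neutrophil markers.

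Of 27 other secreted factors that act on blood-forming cells 4 rose and 0 fell (4.86% and 2.53% of all genes), with a median change of 0.15. Igf2, the fetal relative of Igf1, gave 13.70, 11.45 and 11.90 in Tie2-positive and 7.24, 7.20 and 8.60 in Tie2-negative samples (4.67 ± 0.66, SE; limma adjusted p = 0.0147). Esm1, a proteoglycan secreted by endothelium, rose by 4.37 ± 0.48 (SE; adjusted p = 0.0104). The other risers, named after their values were seen, were Il6 (2.60, adjusted p = 0.0295) and the lymphocyte growth factor Il15 (1.85, adjusted p = 0.0104). Mdk, the closest relative of Ptn and also named after its values were seen, gave 6.02, 7.10 and 8.02 against 6.35, 6.30 and 6.65 and did not pass (0.61, adjusted p = 0.417).

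Other adhesion molecules of the niche included many that rose. Of 19, 9 rose (4.86% of all genes), 0 fell (2.53%) and 10 did not pass, with a median change of 2.61 against -0.11 over all genes. Cdh5, the cadherin of endothelial junctions, rose by 5.58 ± 0.61 (SE; limma adjusted p = 0.0104), the sialomucin gene Cd34 by 5.01 ± 1.02 (SE; adjusted p = 0.0362) and F11r, a junctional adhesion molecule, by 4.28 ± 0.61 (SE; adjusted p = 0.0149). Cdh5, Pecam1 and Esam also stand in the endothelial marker list. Of 10 partners of the IGF system 4 rose and 0 fell (4.86% and 2.53% of all genes). The risers were led by the IGF binding proteins Igfbp3 (6.64 ± 0.82, SE), Igfbp7 (5.51 ± 0.58, SE) and Igfbp4 (3.01 ± 0.28, SE), with limma adjusted p between 0.0103 and 0.0123.

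Genes whose pattern was most like each called factor were sought by the Euclidean distance between log2 profiles over the 6 arrays, each gene centred on its own mean. For Vcam1 these were Col4a1, a basement membrane collagen (distance 0.32), Cavin2, a caveola protein (0.57), and Igfbp3 (1.08), all with Tie2-negative replicate 3 as the highest array of its population. For Kitl they were the homeobox gene Meox2 (0.81), the growth factor gene Vegfc (0.92) and Igfbp7 (0.99), and for Cxcl12 they were Vegfc (0.73), the BMP receptor gene Acvr1 (0.74) and the elastic fibre gene Fbln5 (0.79). For Igf1 they were Tmcc3 (0.68), Gcnt2 (0.70) and Sspn (0.89), and for Il34, whose change was small, Nptx1 (0.07), Elavl4 (0.10) and Clrn3 (0.11). These distances rest on 6 arrays in 2 populations and are a description.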

How the data were processed

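Sorted cells of the limb skeleton gave 6 arrays in 2 populations. Per the labels' protocols, RNA was amplified in a double round and hybridised to Affymetrix 430-2.0 arrays, scanned with GCOS 1.1.1. The deposited table holds 1 value per probe set and array (2.56 to 14.78), taken as log2 from its range. The authors' summary and normalization steps are not given in the sources used. Of 45101 probe sets, 64 array controls were left out, 34945 carried 1 gene symbol, 932 several and 9160 were unnamed here. RefSeq's table (GRCm38.p6) held the gene IDs of 34741 of the 34945 and changed 0 symbols. No array pair was identical (0 pairs).

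Upper quartiles of the deposited values differed by up to 0.26 between arrays, being higher in the Tie2-positive ones, so the values were quantile normalized, which also removed that difference. Limma 3.58.1 in R 4.3.3 (lmFit, eBayes with a mean trend) was fitted over 18193 genes, each by its probe set with the highest mean, and over 45037 probe sets, with all 6 arrays, no covariates, two-sided, and Benjamini-Hochberg adjustment over each whole table at 0.05. No filter on low values was used. With 3 arrays per population, precision is limited by their number. The procedure was tested on simulated data.

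The 10 factors and all lists were chosen with earlier results of these data known. Named genes followed a rule: every factor and probe set, up to 3 called genes per related list with a population mean above the median of all gene values (6.55) by size of change, the 2 highest-mean genes where a list had none and for each marker list, of which not all are printed, and the 3 nearest genes to each called factor. Others are said to be named after their values were seen. Alternatives were the replicate block, deposited values, arrays centred on medians, a filter at the 40th percentile, eBayes without trend or robust, array weights, leaving out each array or Tie2-positive replicates 2 and 3, the mean of all probe sets, and no x_at, s_at or a_at probe sets. Replicate numbers appear in the titles with no stated meaning. Deviations of same-numbered arrays correlated at 0.14, 0.01 and 0.19, and those of differently numbered arrays at -0.16 to 0.055. The values for replicates 1 and 3 were the highest, so this check does not settle whether the numbers pair the samples. As no pairing is stated, the main fit had no block, and the block was run as an alternative.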

Additional observations from a re-analysis of the deposited data

How the results depend on the processing

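The number of called factors at the gene level was 5 of 8. It was 4 or 5 under the values as deposited, centring, eBayes without trend or robust, array weights and the mean of all probe sets. It was 4 with the 40th percentile filter (which left 5 factors) and with no x_at, s_at or a_at probe sets (6 factors). The filter used the mean over all 6 arrays. Kitl, Cxcl12 and Vcam1 passed it through the Tie2-positive arrays, so the count with the filter is no separate check of them. Their Tie2-negative means lay at the 17.4th, 29.1st and 18.4th percentile of all probe sets. The share of all genes called, 7.39% in the fit reported, was 13.1% with the filter, 25.5% with array weights and 6.66% to 8.4% in the others of these. Leaving out each array in turn gave 0 to 5 factors, and by probe set 0 to 8 against 9 of 24. The share called in these fits ran from 0 to 11.8% over all genes and from 0.033% to 7.95% over all probe sets. The number of called factors was 3 when Tie2-positive replicate 2 or 3 was left out (2.77% and 5.96% of all genes). By probe set it was 4 without replicate 2 of the Tie2-positive or replicate 3 of the Tie2-negative arrays (1.99% and 1.43% of all probe sets). Without Tie2-negative replicate 1 or 2 the number was 0 both ways. In each of these fits 5 factors had an unadjusted limma p under 0.05, as had 4012 and 3980 of all 18193 genes. With the replicate block 0 factors and 3 probe sets passed, over all genes 0 and over all probe sets 801, and without Tie2-positive replicates 2 and 3 together 16 probe sets did. The 5 called factors and 9 called probe sets kept their direction under every alternative run for them. A change of sign was seen only for values that did not pass. For Csf1 (1425154_a_at) the log2 change was 0.01 as deposited, 0.05 with centring and 0.11 without Tie2-positive replicates 2 and 3 together, and 0.26 over the mean of its probe sets. For the Csf1 probe set 1448914_a_at it was 0.063 as deposited, 0.10 with centring and 0.34 without both replicates, and -0.19 to 0.12 with single arrays left out. The Cxcl12 probe set 1439084_at gave -0.030 with array weights and -0.021 to 0.25 with single arrays left out. Il7 gave 0.10 without both replicates, 0.024 over the mean of its probe sets and -0.19 to 0.041 with single arrays left out. Ptn (1443173_at) gave 0.28 without both replicates, 1.53 over the mean of its probe sets and -0.28 to 0.033 with single arrays left out. The causes were not tested.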
